A study of Mus musculus with 16 samples.

Results

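Interferon-stimulated genes are the transcripts that a cell turns on after interferon binds its receptors. Here they are a list of 41 mouse genes, found by symbol in the deposited single-cell tables, which list 27998 genes, and all 41 were found. The data come from kidneys of C57BL/6 mice that were wild type or lacked Gulo (Gulo-/-), the gene of the last enzyme of vitamin C synthesis. Each genotype had 2 single-cell RNA libraries among the 16 samples of the study. Any vitamin C given, the age of the mice and the number of animals behind a library are not given in the labels, which say that the kidneys were chopped and mixed before they were shared out between the assays. The p-values therefore measure only the spread between these libraries. By sex-linked transcripts the 2 libraries of each genotype differed in sex. Their spread mixes sex, animal and technical differences, which cannot be told apart.

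Interferons signal through surface receptors and JAK kinases to STAT proteins. Type I interferon leads to a complex with STAT2 and IRF9 that binds a DNA element called ISRE, and interferon gamma acts through an element called GAS. The genes under these elements encode antiviral effectors, sensors of foreign nucleic acid, GTPases that attack the compartments of intracellular microbes, and the transcription factors that extend the response. In kidney, the vessel lining, resident macrophages and tubule cells can all respond to interferon.

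The totals were 10208946 and 61688164 UMIs (single captured transcripts) for the wild type libraries against 10073836 and 88925323 for the Gulo-/- libraries, always in the order of replicates 1 and 2, and 1595, 7551, 1877 and 13962 cells were kept. The wild type libraries shared 807 kept barcodes, where chance gives 18.1, and these were taken out of replicate 2. They made up 50.6% of the kept barcodes of wild type replicate 1. Of the 779 given a cell type in both libraries, 776 had the same type. Removing them from both libraries left 49 of 93 endothelial cells in wild type replicate 1. Whether they are the same cells was not tested, so the wild type libraries may not be fully independent. By Xist and Ddx3y, replicate 1 of the wild type and replicate 2 of the Gulo-/- libraries were female, and the other two were male. Gulo had 0 and 1 UMIs in wild type cells against 0 and 2 in Gulo-/- cells, so these counts do not check the labels. Cell types were gated by marker UMIs per cell. The gates with at least 20 cells in every library were endothelial (93, 148, 343 and 768 cells in wild type replicates 1 and 2 and Gulo-/- replicates 1 and 2), macrophage (33, 101, 51 and 90), proximal tubule (1307, 6401, 858 and 1478) and thick ascending limb (44, 228, 149 and 4317). All 6 endothelial genes that the gate did not use, such as Cldn5 and Tek, were highest in the endothelial gate, and so were 5 of 5 such genes in the gate of each of the other 3 types. No gate took 4.6% and 4.2% of wild type cells and 15% and 36.8% of Gulo-/- cells.

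The members fall into 7 role groups. The transcription factors are Irf1, Irf7, Irf9 and Stat2. The IFIT proteins, which bind viral RNA, are Ifit1, Ifit2, Ifit3 and Ifit3b. Isg15, a ubiquitin-like modifier, and Usp18, the protease that removes it and dampens receptor signalling, form the ISG15 system. The immunity-related GTPases are Igtp, Irgm1, Irgm2, Iigp1, Tgtp2 and Ifi47, and the guanylate-binding proteins are Gbp2 to Gbp7. Sensors and OAS genes are Zbp1, Ddx58 (RIG-I), Ifih1 (MDA5), Ifi204, Oas1a and Oasl2. The last group joins restriction factors and other effectors: Ifitm3, Bst2, Rsad2, Trim30a, Ifi27l2a, Ifi35, Ifi44, Xaf1, Parp14, Rtp4, Rnf213, Apol9b and Psmb9.

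Several of these genes lie in tandem. In the RefSeq annotation of GRCm38.p6, the 4 Ifit genes lie on chromosome 19 between Ifit2 (start 34550550) and Ifit1 (end 34650009). Gbp2, Gbp3, Gbp5 and Gbp7 lie on chromosome 3 between the start of Gbp5 (142496934) and the end of Gbp2 (142638008), and Gbp4 and Gbp6 on chromosome 5. Chromosome 11 holds 9 members, among them 5 of the 6 immunity-related GTPases. Close copies such as Ifit3 and Ifit3b, the Gbp genes, Apol9a and Apol9b, and the Irgm and Tgtp genes can share reads, so the split of UMIs between copies is uncertain.

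The DNA elements of the pathway can be read in the promoters, taken as 250 bases before to 50 after the start in RefSeq (GRCm38.p6), where 32 of the 41 members had a sequence. An ISRE core, TTTC followed by any pair of bases (NN) and a second TTTC, searched on both strands, was in 21 of 32 members (65.6%) and in 1079 of 27025 genes with a promoter sequence (3.99%). A GAS core, TTCNNNGAA, which reads the same on both strands, was in 11 of 32 members (34.4%) and in 2582 of all 27025 (9.55%). Both were in 8 members. Of 51 other interferon-stimulated genes with a promoter sequence, 20 (39.2%) held the ISRE core and 7 (13.7%) the GAS core. The windows below show the ISRE core, in capitals, in members from 6 role groups that the results turn on, with 10 bases on each side and in the direction of transcription, so that GAAA, NN and GAAA in a row is the core on the other strand.
Ifit1, chr19:34640775-34640804, + strand: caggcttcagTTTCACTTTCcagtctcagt
Ifit1, chr19:34640794-34640823, + strand: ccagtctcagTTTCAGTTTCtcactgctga
Ifit3, chr19:34583397-34583426, + strand: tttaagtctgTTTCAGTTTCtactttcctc
Ifit3b, chr19:34607793-34607822, + strand: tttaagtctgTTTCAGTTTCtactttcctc
Isg15, chr4:156200871-156200900, - strand: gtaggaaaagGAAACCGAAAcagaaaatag
Igtp, chr11:58199512-58199541, + strand: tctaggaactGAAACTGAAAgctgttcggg
Irgm2, chr11:58214903-58214932, + strand: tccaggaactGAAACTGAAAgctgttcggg
Gbp3, chr3:142559989-142560018, + strand: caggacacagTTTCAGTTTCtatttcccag
Gbp7, chr3:142530273-142530302, + strand: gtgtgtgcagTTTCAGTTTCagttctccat
Ddx58, chr4:40239804-40239833, - strand: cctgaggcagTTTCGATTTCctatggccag
Ifitm3, chr7:141010706-141010735, - strand: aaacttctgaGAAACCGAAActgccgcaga
Apol9b, chr15:77729025-77729054, + strand: gaggtgagacTTTCAGTTTCcatttcccag

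The windows of Ifit3 and Ifit3b are identical. The GAS core, in capitals, is shown for Irf1, where the ISRE core was not found, and for Igtp and Gbp7, which held both.
Irf1, chr11:53769914-53769942, + strand: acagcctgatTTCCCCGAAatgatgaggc
Igtp, chr11:58199501-58199529, + strand: aactagccatTTCTAGGAActgaaactga
Gbp7, chr3:142530220-142530248, + strand: tccgttttctTTCCAGGAAaagcagaagc

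In Igtp the 2 cores lie side by side, and their windows overlap. A match is a string of letters in the window, and binding was not measured.

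In wild type kidney, the endothelial gate had the highest summed level of the gated cell types in both libraries, and immune cells came next. Summed over the 41 genes, the level in endothelial-gated cells was 11993 and 7466 CPM (UMIs scaled to a common library total) in wild type replicates 1 and 2. Macrophage-gated cells had 5637 and 3399 CPM. T and NK cells had 3109 and 1441 CPM (15 and 56 cells), and B and plasma cells 3807 and 970.7 CPM (4 and 62 cells). Neutrophils had 1918 and 3917 CPM (1 and 33 cells), and dendritic cells 2549 and 4454 CPM (2 and 9 cells). The order of the immune gates differed between the wild type libraries, and macrophages were the highest of them in replicate 1 but below dendritic cells and neutrophils in replicate 2. Principal cells of the collecting duct stood lower, at 540.2 and 565.3 CPM, from 7 and 72 cells. Thick ascending limb had 86.5 and 173 CPM, and proximal tubule, the bulk of the kidney, 99.8 and 115.5 CPM. Thick ascending limb and proximal tubule changed places between the libraries.

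The endothelial gate made up 5.83% and 1.96% of wild type cells and held 67.49% and 27.93% of their interferon-stimulated UMIs. Proximal tubule held 10.15% and 32.45% of these UMIs from 81.94% and 84.77% of the cells. Ifitm3, an inhibitor of virus entry, Bst2 (tetherin), which holds virions at the cell surface, and Rsad2 (viperin), an enzyme that makes an antiviral nucleotide, supplied 59.7% and 56.4% of the UMIs of the list in the wild type endothelial gate. In macrophages their share was 26.3% and 30.6%. Sums are therefore also given without these 3 genes, which were chosen after their values were seen. Without them the wild type endothelial sums were 4835 and 3256 CPM and the macrophage sums 4154 and 2359 CPM.

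Gene by gene, 28 of the 41 members were highest in the endothelial gate in both wild type libraries when the 4 gates were compared, and 4 in the macrophage gate: Zbp1, Ifi204, Oas1a and Ifi27l2a. Ifi27l2a, a small mitochondrial protein, stood at 1415 and 1052 CPM in wild type macrophages and 235.2 and 116.3 CPM in endothelial-gated cells. Others had few or no UMIs in macrophages. Ifit1 had 183.7 and 165.3 CPM in endothelial-gated cells and 0 and 6 UMIs in macrophages. Ifi44 had 284.1 and 207.1 CPM in endothelial-gated cells and also 0 and 6 UMIs in macrophages, and Apol9b had 0 UMIs in macrophages of all 4 libraries. Wild type replicate 2 had enough cells to set 10 gates side by side, and there 27 members were highest in endothelial, 6 in neutrophil, 4 in T and NK, 2 in B and plasma and 2 in macrophage cells.

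**Figure D1:**
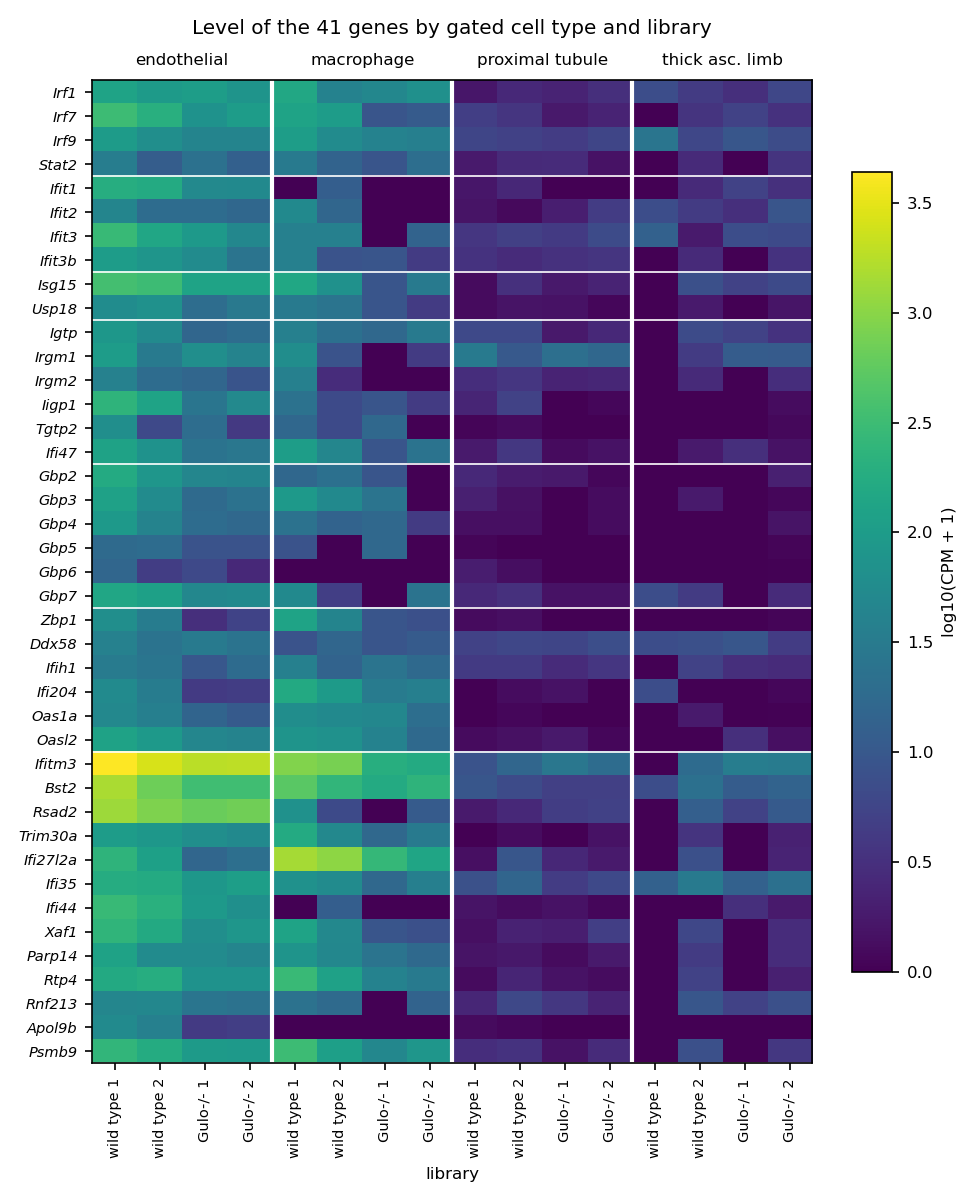
Level of each of the 41 genes, as log10(CPM + 1), in 4 gated cell types (blocks of columns) and 4 libraries (columns); white lines separate the 7 role groups. The endothelial block is the brightest for most genes, Ifi27l2a is brightest in wild type macrophages, and the tubule blocks are dark.

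The tubule signal was small enough to set against free RNA. The 6 endothelial genes not used for gating were in proximal tubule cells at 0% to 1.98% of their endothelial level over the 4 libraries, with medians of 0.09% and 0.24% in wild type against 0.83% and 0.84% in Gulo-/- libraries. The 41 members had medians of 0.58% and 1.33% in wild type against 1.18% and 1.28% in Gulo-/- libraries. These lie inside that range but above the endothelial gene median of every library. In wild type the top of the range was Ramp2 (1.4% and 2.0%), and the other endothelial genes were at most 0.3%. Irgm1, a regulator of the GTPase family and of autophagy, was above the range in every library. It stood at 29.7%, 30.6%, 33% and 36.9% of its endothelial level. Ddx58, the RNA sensor RIG-I, stood at 10.7% to 27.7%, and Ifih1, the RNA sensor MDA5, at 9.8% to 21.2%. Irf9, Stat2, Igtp, Irgm2, Ifi35, Rnf213 and Ifit3b were also above the range in every library, at 2.3% to 18.7%. Ifitm3 was at 0.2% to 1.5% and Rsad2 at 0.1% to 0.6%, within the range of the endothelial genes.

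**Figure D2:**
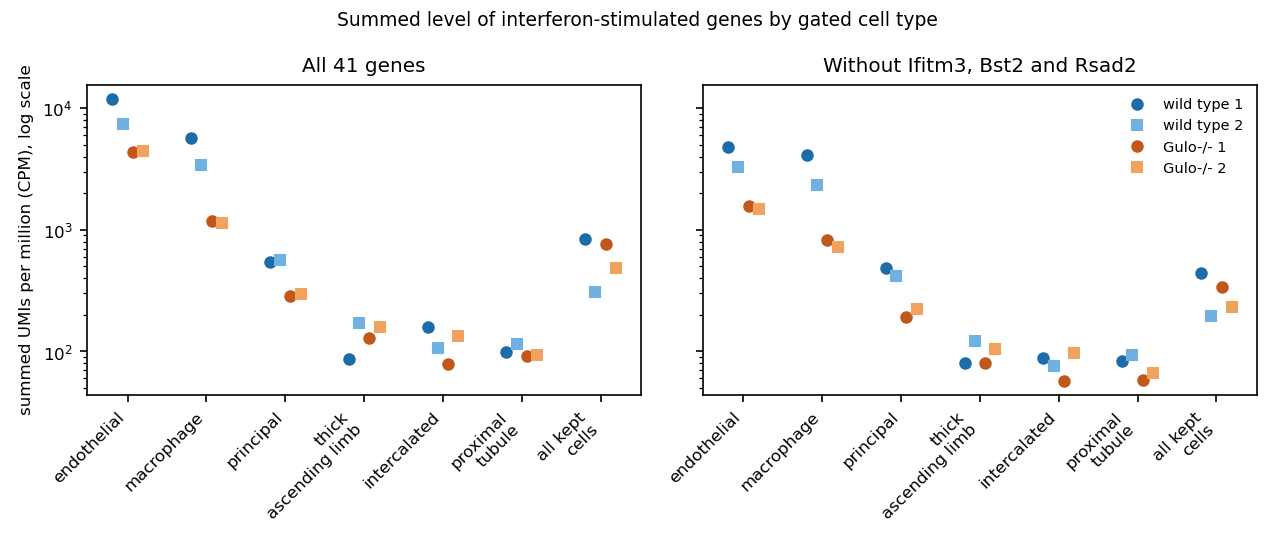
Summed level (CPM, log scale) of all 41 genes (left) and of 38 genes without Ifitm3, Bst2 and Rsad2 (right) in 6 gated cell types and in all kept cells; each point is 1 library, and wild type replicate 1 had 7 principal cells. Both Gulo-/- points lie below both wild type points in the endothelial, macrophage, principal and proximal tubule gates. In proximal tubule the gap is narrow for all 41 genes. The points of all kept cells overlap.

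The central comparison asked how each member differed with genotype within endothelial-gated cells. The summed level was 11993 and 7466 CPM in wild type against 4406 and 4413 CPM in Gulo-/- libraries, a ratio of wild type to Gulo-/- means of 2.21 (9729 ± 3201 against 4410 ± 4.81, SD, n = 2 each). Without Ifitm3, Bst2 and Rsad2 the values were 4835 and 3256 against 1574 and 1482 CPM, a ratio of 2.65. The 2 Gulo-/- libraries were close together, and the 2 wild type libraries were apart. In sums over cells, fewer expressing cells and less RNA per cell cannot be told apart, and the per-cell values further on bear on that point.

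Of the 41 members, 40 had enough UMIs to be tested, and all 40 had a negative log2 difference (Gulo-/- minus wild type), where 49.5% of all 7370 genes tested did. edgeR's quasi-likelihood test called 14 of the 40 lower at a Benjamini-Hochberg adjusted p under 0.05 over all genes tested and 0 higher. Over all genes the test called 37 lower (0.502%) and 9 higher (0.122%). An unadjusted p under 0.05 was reached by 34 members, all lower, against 5.35% of all genes. In 34 members both Gulo-/- libraries lay below both wild type libraries, against 12% of all genes. The median log2 difference of the 40 members was -1.51, with a range of -3.79 to -0.34, and that of all genes was 0.01. The list was chosen with earlier results of these data known. The contrast with all genes therefore describes these libraries and is not independent support. Gbp6, the member not tested, had 6 and 2 UMIs in wild type against 5 and 6 in Gulo-/- libraries. A member could pass the low-count filter through the libraries of a single genotype. This concerns genes with few UMIs in Gulo-/- cells, such as Zbp1, Ifi204 and Apol9b. Without wild type replicate 1 the test called 0 members (all 14 stayed negative), and without wild type replicate 2 it called 1. With sex as a block it called 5, with a mitochondrial limit of 25% it called 7, and with the barcodes shared by the wild type libraries removed from both it called 5.

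Among the transcription factors, 1 of 4 was called. Irf7, the factor that amplifies the type I response, stood at 316 and 196.2 CPM in wild type against 69.7 and 102.1 CPM in Gulo-/- libraries, and its genotypes did not overlap. It fell by 1.69 ± 0.28 on the log2 scale (SE, n = 2 per genotype, edgeR adjusted p = 0.039). Irf1, the early factor that interferon gamma induces, overlapped between genotypes, with 127.4 and 96.3 CPM against 105.1 and 76.3 CPM (log2 difference -0.44 ± 0.30, adjusted p = 0.67). Irf9 and Stat2, partners in the ISRE-binding complex, had log2 differences of -1.02 and -0.61 (adjusted p = 0.217 and 0.793).

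Among the IFIT genes, 1 of 4 was called. Ifit1, which binds RNA with an unmethylated cap, was at 183.7 and 165.3 CPM in wild type against 50.4 and 52.4 CPM in Gulo-/- libraries, with replicates of a genotype close together. The log2 difference was -1.90 ± 0.25 (edgeR adjusted p = 0.0155). Ifit3, its partner, was more spread, at 284.1 and 143.5 against 90.1 and 47.8 CPM (log2 difference -1.76 ± 0.44, adjusted p = 0.19). Ifit3b and Ifit2 had log2 differences of -1.39 and -1.02 and were not called.

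Both genes of the ISG15 system were lower in each Gulo-/- library than in either wild type library, and 1 of 2 was called. Isg15 had 357.6 and 308.9 CPM in wild type against 129.8 and 129.3 CPM in Gulo-/- libraries (log2 difference -1.50 ± 0.24, edgeR adjusted p = 0.0312). Usp18 had 58.8 and 69 CPM against 19.3 and 29.1 CPM (log2 difference -1.52 ± 0.32, adjusted p = 0.095).

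The immunity-related GTPases had 3 of 6 members called. Iigp1, which loads onto parasite vacuoles, was at 232.7 and 127.2 CPM in wild type against 24.7 and 50.5 CPM in Gulo-/- libraries (log2 difference -2.33 ± 0.36, edgeR adjusted p = 0.0306). Igtp (Irgm3), a regulatory member of the family, was at 83.3 and 54.5 against 15 and 18.5 CPM (-2.14 ± 0.33, adjusted p = 0.0305). Ifi47 was at 122.5 and 70.9 against 23.6 and 26.9 CPM (-2.04 ± 0.31, adjusted p = 0.0305). In these 3 genes the Gulo-/- libraries lay far below the wild type ones, whereas Irgm1 overlapped, with 100.4 and 30.9 against 62.2 and 41.3 CPM (-0.44 ± 0.51, adjusted p = 0.84). Tgtp2 rested on 3 UMIs in wild type replicate 2 and had the widest error of the 40 members (-2.01 ± 1.43).

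The guanylate-binding proteins, large GTPases that coat and break open microbe-containing vacuoles, had 2 of 5 tested members called, and in all 5 the genotypes did not overlap. Gbp3 had 120 and 56.3 CPM in wild type against 17.2 and 22.8 CPM in Gulo-/- libraries (log2 difference -2.21 ± 0.36, edgeR adjusted p = 0.0384). Gbp7 had 142.1 and 116.3 against 47.2 and 52.7 CPM (-1.50 ± 0.25, adjusted p = 0.0396). Gbp2 had 166.6 and 81.8 against 46.1 and 42.4 CPM but missed the threshold (-1.60 ± 0.33, adjusted p = 0.0878).

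Among sensors and OAS genes, 2 of 6 were called, and these changed more than most members. Zbp1, the sensor of Z-form nucleic acid that can start necroptosis, had 25 and 18 UMIs in wild type against 2 and 16 in the larger Gulo-/- libraries, or 61.2 and 32.7 against 2.15 and 4.35 CPM (log2 difference -3.76 ± 0.48, edgeR adjusted p = 0.0151). Ifi204, a DNA-binding member of the p200 family, had 53.9 and 32.7 against 3.22 and 3.53 CPM (-3.77 ± 0.46, adjusted p = 0.0151). These 2 genes were near their detection limit in Gulo-/- endothelial-gated cells. Ddx58 showed the smallest difference of all 40 members, with 39.2 and 23.6 against 31.1 and 23.6 CPM (-0.34 ± 0.40, adjusted p = 0.837). Oasl2, a 2'-5'-oligoadenylate synthetase-like protein, had 124.9 and 92.7 against 46.1 and 41.8 CPM (-1.45 ± 0.27, adjusted p = 0.0652).

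In the last group, all 13 members had both Gulo-/- libraries below both wild type libraries, and 4 were called. Apol9b, an apolipoprotein L, stood at 53.9 and 38.2 CPM in wild type against 3.22 and 3.80 CPM in Gulo-/- libraries (log2 difference -3.79 ± 0.43, edgeR adjusted p = 0.0113). Ifi27l2a stood at 235.2 and 116.3 against 15 and 20.6 CPM (-3.37 ± 0.35, adjusted p = 0.0109). Ifi44 was at 284.1 and 207.1 against 92.2 and 64.9 CPM (-1.78 ± 0.30, adjusted p = 0.0422). Xaf1, an antagonist of the apoptosis inhibitor XIAP, was at 242.5 and 163.5 against 62.2 and 80.9 CPM (-1.62 ± 0.26, adjusted p = 0.0351).

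The 2 named genes of that group with the most UMIs differed less and were not called. Ifitm3 was at 4375 and 2655 CPM in wild type against 1865 and 1885 CPM in Gulo-/- libraries (log2 difference -1.02 ± 0.29, edgeR adjusted p = 0.221). Rsad2 was at 1291 and 870.3 against 636 and 710.8 CPM (-0.81 ± 0.26, adjusted p = 0.287). In Ifitm3 the wild type libraries were further apart than wild type replicate 2 was from the Gulo-/- libraries.

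**Figure D3:**
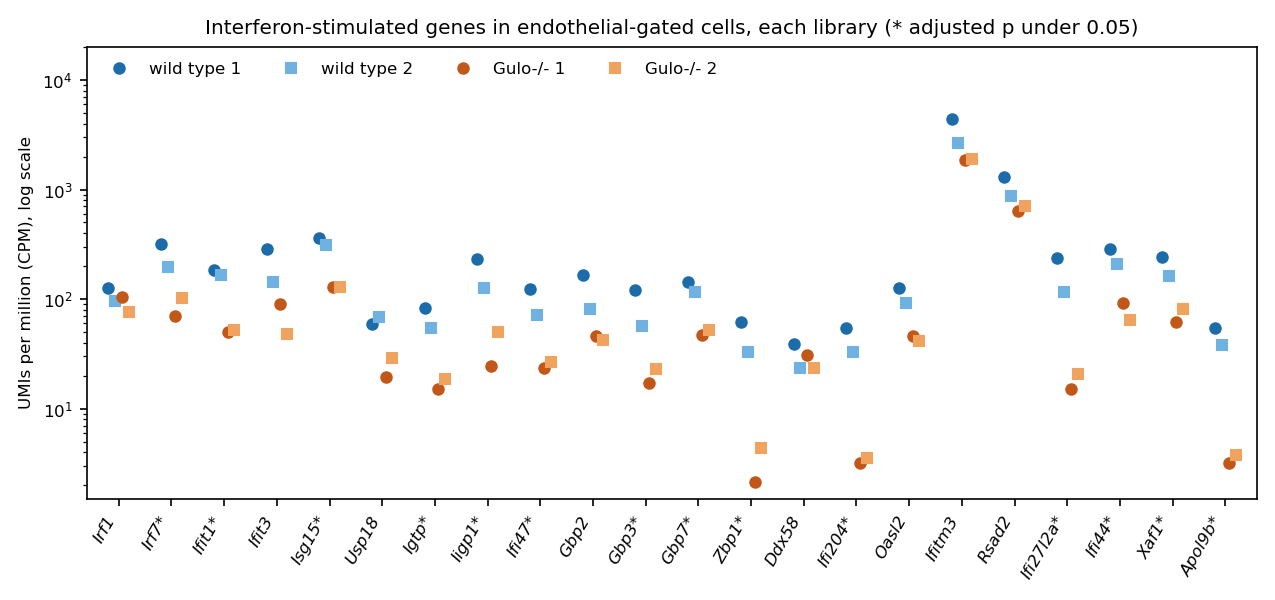
Level (CPM, log scale) of 22 members in endothelial-gated cells, ordered by role group; each point is 1 library, and an asterisk marks an edgeR adjusted p under 0.05. The Gulo-/- points lie below the wild type points in 20 of the 22 genes, overlap in Irf1 and Ddx58, and are lowest against wild type in Zbp1, Ifi204, Ifi27l2a and Apol9b.

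The wild type libraries did not agree in level. Wild type replicate 2 was lower than replicate 1 in 36 of 40 members with at least 10 UMIs over the pair, with a median log2 difference of -0.64 (all genes -0.19). The Gulo-/- libraries differed by a median of -0.03, with replicate 2 lower in 24 of 41 members. Between the female libraries all 41 members were lower in Gulo-/- (median -1.59), and between the male libraries 35 of 40 were (median -1.11). The genotype difference was thus larger than the difference between wild type libraries in both pairs, and it was larger in the pair that holds wild type replicate 1.

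Other cells inside the gate were checked by their markers. Summed macrophage markers in endothelial-gated cells were 9.80 and 21.8 CPM in wild type against 13.9 and 5.98 CPM in Gulo-/- libraries, and Ms4a7 had 0 UMIs. Dendritic cell markers were at 41.6 and 14.5 against 62.2 and 20.9 CPM, with 5 of 7 at 0 (Flt3, Xcr1, Clec9a, Cd209a and Ccr9). T and NK cell markers were at 0 in 3 libraries and at 3.53 CPM in Gulo-/- replicate 2. These lists overlapped between genotypes. Proximal tubule markers were at 2141 and 5382 against 2133 and 1236 CPM, and erythroid genes at 56.3 and 447 against 598.5 and 2664 CPM. Thick ascending limb markers were at 63.7 and 178.1 against 195.2 and 722.4 CPM, and principal cell markers at 9.80 and 56.3 against 134.1 and 319.7 CPM. Stromal markers were at 0 and 1.82 against 10.7 and 5.16 CPM, and B and plasma cell markers at 2.45 and 1.82 against 3.22 and 11.4 CPM. The proximal tubule list was lower and the other 5 were higher in both Gulo-/- libraries, and their part in the result was not tested. In the 73, 107, 273 and 457 endothelial-gated cells with no UMI of any immune marker, the summed levels were 12337 and 7865 against 4411 and 4506 CPM. There, 10 of the 14 members called in the whole gate were still called lower.

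The kidney's endothelium differs along the vessel tree, so the gate was split by Plvap, found in peritubular capillaries, and Ehd3, found in the glomerulus. Cells with Plvap and without Ehd3 numbered 49, 73, 253 and 511. Their summed levels were 13162 and 7994 CPM in wild type against 4430 and 4700 CPM in Gulo-/- libraries. Only 3 of the 14 members called in the whole gate were still called lower. Cells with Ehd3 and without Plvap numbered only 2, 3, 1 and 28 and could not be tested. The genotype difference of the sum in the peritubular subset was as large as in the whole gate.

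Per cell, the difference was spread over the gate. After thinning each cell to 1000 UMIs (0 cells were shallower), endothelial-gated cells had a median of 12 and 7 UMIs of the 41 genes in wild type against 4 and 4 in Gulo-/- libraries. Without Ifitm3, Bst2 and Rsad2 the medians were 4 and 3 against 1 and 1. Cells with 0 UMIs of the 38 genes made up 4.3% and 12.8% in wild type against 33.2% and 31.9% in Gulo-/- libraries, and cells with 5 or more made up 44.1% and 25.7% against 6.7% and 6.5%. Proximal tubule cells, for comparison, had a median of 0 in every library, and 92.2% to 94.4% of them had 0 UMIs of the 38 genes.

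For Isg15, the only gene shown in this way, the share of cells followed the level. Isg15 was seen in 25.81% and 20.95% of thinned wild type endothelial-gated cells (exact 95% intervals 17.29% to 35.92% and 14.7% to 28.39%). In Gulo-/- libraries the shares were 7.87% and 9.64% (5.25% to 11.25% and 7.64% to 11.95%), and without thinning they were 45.16%, 44.59%, 14.29% and 29.95% in the 4 libraries. In thinned proximal tubule cells Isg15 was seen in at most 0.27% of cells, with median depths of 3276.5 to 5148 UMIs there and 1929 to 3565 in the endothelial gate. Intervals cover counting error only.

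**Figure D4:**
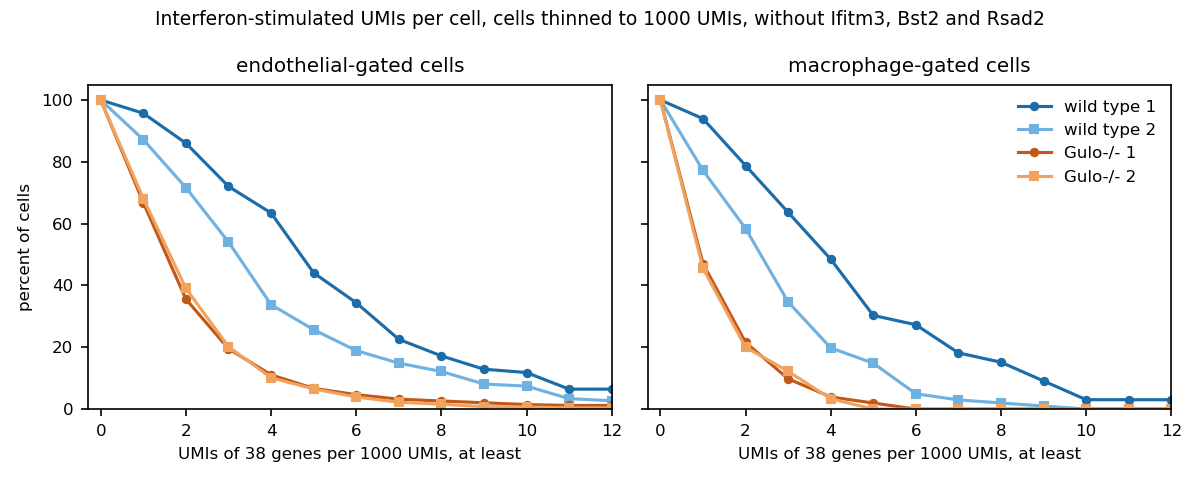
Percent of endothelial-gated (left) and macrophage-gated (right) cells with at least the number of UMIs on the x axis, summed over 38 genes after thinning each cell to 1000 UMIs; each line is 1 library. Both Gulo-/- lines fall faster than both wild type lines, and 44.1% and 25.7% of wild type against 6.7% and 6.5% of Gulo-/- endothelial-gated cells reach 5.

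Macrophages showed a difference of the same sign, on far fewer UMIs. Their summed level was 5637 and 3399 CPM in wild type against 1180 and 1133 CPM in Gulo-/- libraries, a ratio of means of 3.91. Only 17 of 41 members had enough UMIs to be tested, and 39 had any. A member could pass the low-count filter on its wild type UMIs alone. The direction and median of the 17 therefore do not stand for the members left out. All 17 had a negative log2 difference (52.7% of all 2504 genes tested did), with a median of -2.02 (all genes -0.03). edgeR called 0 of the 17, as it called 0 of all 2504 genes (0%), while 15 members had an unadjusted p under 0.05, all lower, against 5.31% of all genes. DESeq2's Wald test called 3 members, and its share of all genes is not given here. In 16 of the 17 both Gulo-/- libraries lay below both wild type libraries, against 11.2% of all genes. Markers of other cells in the macrophage gate were higher in both Gulo-/- libraries for 5 lists. Endothelial markers were at 30.4 and 62.3 against 80.3 and 162.4 CPM, and dendritic markers at 7.61 and 30.2 against 88.3 and 72.9 CPM. Principal cell markers were at 0 and 35.9 against 80.3 and 341.3 CPM, intercalated cell markers at 7.61 and 34 against 48.2 and 208.8 CPM, and B and plasma cell markers at 53.3 and 51 against 56.2 and 59.7 CPM. Their part in the macrophage values was not tested.

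The members with the lowest adjusted p in macrophages were Ifi27l2a, Irf7 and Ifitm3 (0.0723 each). Ifi27l2a had 1415 and 1052 CPM in wild type against 264.9 and 139.2 CPM in Gulo-/- libraries (log2 difference -2.83 ± 0.45). Irf7 had 129.3 and 102 against 8.03 and 9.94 CPM, from 17, 54, 1 and 3 UMIs (-3.76 ± 0.60). Ifitm3 had 905.3 and 787.5 against 192.7 and 165.7 CPM (-2.45 ± 0.40). In each of these 3 genes the genotypes did not overlap. Isg15 (-2.32 ± 0.63, adjusted p = 0.222) and Xaf1 (-3.59 ± 0.79, adjusted p = 0.139) had larger estimates here than in endothelial-gated cells, with wider errors. Per cell, 6.1% and 22.8% of wild type and 52.9% and 54.4% of Gulo-/- macrophages had 0 UMIs of the 38 genes after thinning.

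**Figure D5:**
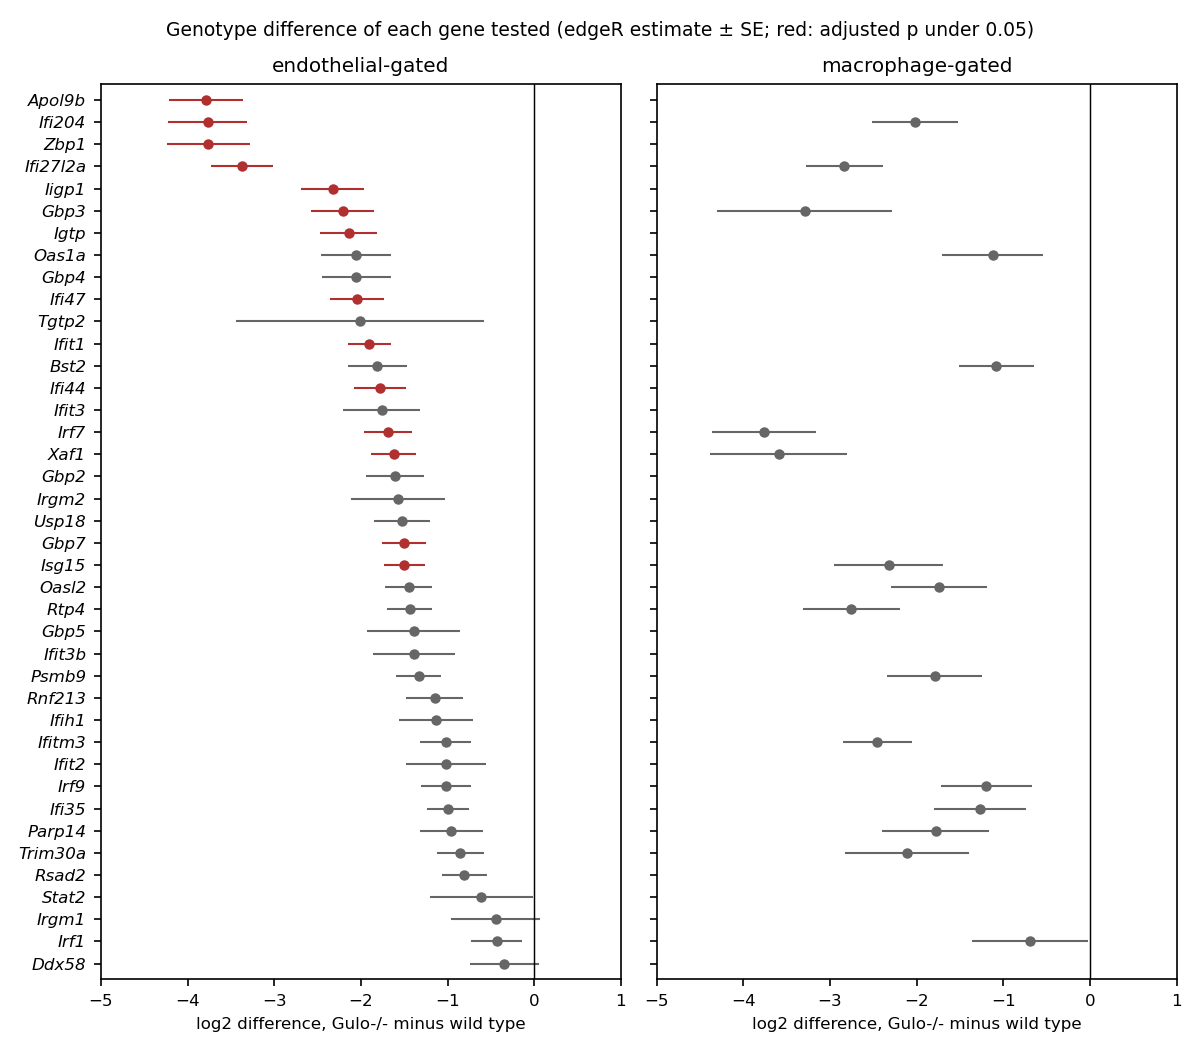
Log2 difference (Gulo-/- minus wild type, edgeR estimate with bars of 1 SE) of the 40 members tested in endothelial-gated cells and the 17 tested in macrophage-gated cells; red marks an adjusted p under 0.05. All points lie left of 0 in both gates, with 14 red points in the endothelial panel and 0 in the macrophage panel.

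In proximal tubule the members tested moved in both directions. Of 19, 13 had a negative log2 difference (5058 of all 10622 genes). In 8 both Gulo-/- libraries lay below both wild type libraries, and in 2 above (1586 and 3480 of all genes). The summed level was 99.8 and 115.5 CPM in wild type against 92.4 and 93.5 CPM in Gulo-/- libraries. Without Ifitm3, Bst2 and Rsad2 it was 83.1 and 93.3 against 57.8 and 66.8 CPM. Of 19 members tested, edgeR called 0, where it called 0.179% of 10622 genes lower and 0.207% higher, and DESeq2 also called 0. An unadjusted p under 0.05 was reached by 5 members with lower values and 2 with higher ones (all genes 6.59% and 6.88%), and the median log2 difference was -0.55 (all genes 0.03). Igtp was at 5.29 and 5.33 CPM in wild type against 0.78 and 1.64 CPM in Gulo-/- cells (-2.21 ± 0.50, adjusted p = 0.122). Ifitm3 was at 7.59 and 15 against 27.1 and 18.7 CPM (0.88 ± 0.38, adjusted p = 0.368) and Rsad2 at 0.81 and 1.60 against 3.64 and 4.10 CPM (1.47 ± 0.51, adjusted p = 0.271). The 12 endothelial gating markers summed to 14.6 and 22.3 against 87.2 and 59.5 CPM in the same cells. Of the 6 endothelial genes that the gate did not use, Cd93, Tek, Mmrn2 and Cldn5 were higher in both Gulo-/- libraries, with Cd93 at 0 and 0.48 against 2.60 and 2.95 CPM. Robo4 and Ramp2 overlapped, and Ramp2, the most abundant of the 6 there, was at 10.2 and 9.46 against 8.59 and 11.8 CPM. The part of endothelial RNA in the values of Ifitm3 and Rsad2 was not tested. By pairs of libraries, medians were taken over members with at least 10 UMIs over the pair. Against wild type replicate 1 the median log2 difference was -0.54 and -0.16 in Gulo-/- replicates 1 and 2 (20 and 23 members). Against wild type replicate 2 it was -0.84 and -0.76 (38 members each).

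Thick ascending limb allowed a test of only 3 members, Ifitm3, Bst2 and Ifi35, and edgeR and DESeq2 called 0, where edgeR called 0.711% of 6890 genes lower and 0.929% higher. Of these, Ifitm3 alone passed an unadjusted edgeR threshold of 0.05 with a higher value, as 3.99% of all genes did. It had a log2 difference of 1.06 ± 0.49 (edgeR adjusted p = 0.585), from 0 and 17.6 CPM in wild type to 33.6 and 31.3 CPM in Gulo-/- libraries. Endothelial gating markers in that gate summed to 92.7 and 118.7 against 206 and 141.8 CPM, and their part in the value was not tested. Principal cells were not tested, since wild type replicate 1 had 7 of them. Their summed level was 540.2 and 565.3 against 285.7 and 299.5 CPM, and the genotypes did not overlap.

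Whether the genotype difference itself differed between gates was tested with a type-by-genotype term. Against proximal tubule, 4 of 41 members had a more negative difference in the endothelial gate (edgeR adjusted p under 0.05) and 0 a more positive one, against 0.95% and 0.351% of 11688 genes. They were Ifit2, Xaf1, Rsad2 and Ifitm3, and without Gulo-/- replicate 2 the count was 0. Against thick ascending limb 1 of 40 members, Ifit3, was more negative (0.083% of 8435 genes). Against macrophages 1 of 38 members, Ifitm3, was more positive in the endothelial gate, that is, its fall was steeper in macrophages (0.0868% of 6909 genes), and that count was 0 when any library was left out. For the other members a difference between gates was not shown, and wide errors in the tubule gates limit that test.

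Summed over all kept cells, the genotypes overlapped, with 842.5 and 308.7 CPM in wild type against 762.7 and 489.6 CPM in Gulo-/- libraries. The endothelial gate made up 18.27% and 5.5% of Gulo-/- cells against 5.83% and 1.96% of wild type cells, and held 71.32% and 41.73% of the interferon-stimulated UMIs of the Gulo-/- libraries. A level taken over the whole kidney therefore mixes the level per cell type with the make-up of the library.

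Upstream of the list, interferon transcripts were rare. Ifng, which encodes interferon gamma, had 21 and 30 UMIs in all wild type cells against 0 and 15 in Gulo-/- cells, and 20 and 21 of the wild type UMIs were in T and NK cells. Gulo-/- replicate 1 had 0 gated T and NK cells. Ifnb1 had 1 UMI in all 4 libraries together, in Gulo-/- replicate 2, and no ligand had a UMI in the endothelial gate.

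Of 13 receptor and signalling genes, 10 were tested in endothelial-gated cells and edgeR called 0. For 2 the unadjusted p was under 0.05, both lower, against 5.35% of all genes. Ifngr2, a chain of the interferon gamma receptor, had 75.9 and 65.4 CPM in wild type against 40.8 and 32.6 CPM in Gulo-/- libraries (log2 difference -1.11 ± 0.30, edgeR adjusted p = 0.19). Ifngr1 had a log2 difference of -0.38 and the type I receptor chains Ifnar1 and Ifnar2 of 0.29 and -0.60 (adjusted p = 0.632, 0.801 and 0.548). Of 13 sensing and adaptor genes 5 were tested, and 0 were called and 0 had an unadjusted p under 0.05.

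Of 60 other interferon-stimulated genes, 40 were tested in endothelial-gated cells. edgeR called 2 lower and 0 higher, where it called 0.502% and 0.122% of all 7370 genes. For 24 the unadjusted p was under 0.05, all lower, against 5.35% of all genes. A negative difference was seen in 39, against 49.5% of all genes. The median log2 difference was -0.95 (all genes 0.01). This list, too, was chosen with earlier results of these data known. Apol9a, the close copy of Apol9b, had 39.2 and 41.8 CPM in wild type against 4.29 and 0.81 CPM in Gulo-/- libraries (log2 difference -4.74 ± 0.67, edgeR adjusted p = 0.0239). Phf11d had 173.9 and 116.3 against 49.3 and 56.8 CPM (-1.57 ± 0.27, adjusted p = 0.0422).

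The promoter letters did not sort the members by their difference. In endothelial-gated cells the 21 members with an ISRE core, Ifit1 and Isg15 among them, had a median log2 difference of -1.50 with 6 called. The 11 members with a promoter sequence but no ISRE core had a median of -1.33 with 4 called. With and without a GAS core the medians were -1.50 (11 members, 2 called) and -1.45 (21 members, 8 called).

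For DNA methylation at these genes, the authors' deposited table lists regions that differ in methylation, but it does not say which side is which genotype. The authors' deposited table held 65 regions assigned to 27 members, of which 44 (67.7%) were lower on side 1, where 53.8% of all 86510 regions were. Some lie far from the start of the gene named, such as 133829 bases for Ifi44 and 119264 for Rtp4. The region chr11:58200157-58200319, assigned to Irgm2, lies within Igtp (58199556-58207592). Regions annotated as promoter were at 8 members: Apol9b, Bst2, Ifi35, Ifi47, Ifih1, Irf1, Irf7 and Stat2. All 8 were lower on side 1 in the authors' deposited table, as were 78.5% of all 7867 promoter regions.

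At Irf7 the region (chr7:141264939-141265642, 21 CpGs) had a mean methylation level of 0.311 on side 1 in the authors' deposited table, with a difference, side 1 minus side 2, of -0.25. At Irf1 (chr11:53769930-53770511, 81 CpGs) the level was 0.118 and the difference -0.13 in the authors' deposited table. At Apol9b (chr15:77729023-77729366, 6 CpGs) the authors' deposited table gives a level of 0.739 and a difference of -0.177, and this region covers the ISRE core printed above. The values come from whole kidney with no value per sample, so they have no replicate error.

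The authors' deposited table of cluster markers lists 4 members. Ifitm3, Rsad2 and Bst2 are markers of the cluster named fEC, detected in a fraction of 0.949, 0.703 and 0.602 of its cells, and Ifit3 of the cluster named EPI, in 0.405 of its cells. In the authors' deposited table the natural log ratios of the fEC markers were 2.81, 2.09 and 1.54.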

How the data were processed

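Members and other gene lists were chosen with earlier results of these data known. The authors deposited the single-cell data as matrices of raw UMI counts. The submitters' processing notes name mm10, Seurat 2.3.4 and MACS2 2.1.2. The counting tool was not given in the sources used here. Methylation levels (a fraction, 0 to 1), their differences between sides and CpG counts came from the authors' deposited table of regions. Marker genes came from the authors' deposited marker table, with a natural log (ln) ratio and the fraction of cells with the gene. The m6A samples and their RNA-seq samples were not used here.

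Cells needed 500 UMIs, 200 genes and no more than 50% mitochondrial UMIs. A cell entered a gate with at least 4 UMIs of at least 2 markers of a type that made up 75% of its non-proximal-tubule marker UMIs and at least 20% of its proximal tubule marker UMIs. Proximal tubule cells needed 10 UMIs, 3 markers and 90%. No doublet caller was run; cells of mixed markers are left ungated. Counts were summed per library and gate and tested with edgeR 4.0.16 (TMM, filterByExpr, robust quasi-likelihood F test, Benjamini-Hochberg over all genes, threshold 0.05). Differences between gates were tested with library as a term. DESeq2 1.42.0, other scalings, filters, gates, blocks and leaving out each library were alternatives. The test script was tested on simulated data. Named members were those called in any gate and the 2 per role group with the highest mean CPM in the endothelial gate; of other pathway genes, called ones and 7 fixed ligand, receptor and signal genes. A result that this rule names is not reported here. A second table entry under the symbol Gbp6 (Gm43302 in the reference) had 0 UMIs and was left out. Of 41 members, 32 matched a RefSeq promoter. Exact binomial intervals are at 95%.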

Additional observations from a re-analysis of the deposited data

Results flagged for a closer look

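The genotype difference itself differed between gates, by the type-by-genotype term of edgeR, in 6 cases. Against proximal tubule the endothelial difference was lower by 2.74 on the log2 scale in Xaf1 (difference -2.74, adjusted p = 0.00364), and it was -2.10 in Rsad2 (adjusted p = 0.00798), -3.46 in Ifit2 (0.0105) and -1.82 in Ifitm3 (0.0137). Xaf1 and Ifit2 rested on 3 and 50 and on 4 and 10 UMIs in wild type proximal tubule cells. Plvap, an endothelial marker, had a value of -2.08 in the same test (adjusted p = 0.00166). Against thick ascending limb the value for Ifit3 was -3.12 (adjusted p = 0.019), on 2 and 1 wild type UMIs in that gate. Against macrophages the value for Ifitm3 was 1.47 (adjusted p = 0.00145), with a steeper fall in macrophages.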

How the results depend on the processing

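The 14 endothelial calls kept a negative difference under 17 alternatives, except that 1 of them was not tested in cells with no immune marker UMI. Their number of calls (main 14) was 25 with no filter on low counts, 5 with sex as a block, 7 with a mitochondrial limit of 25%, 5 with shared barcodes removed from both libraries, 22 with them kept, 8 without the 5% of barcodes with the most UMIs and 3 in Plvap+ Ehd3- cells, and 0 to 24 when 1 library was left out. Library totals as scaling moved the median of all endothelial genes to 0.17. With the replicate number as a block (replicate block) 27 members were called in endothelial cells and 8 in macrophages. Deviations of same-numbered libraries had correlations of 0.078, -0.067, -0.003 and 0.134 in endothelial, proximal tubule, thick ascending limb and macrophage gates. With 2 libraries per genotype, the correlation of same-sex libraries is by construction the same value with the opposite sign. These values therefore cannot decide whether the libraries are paired by number or by sex. The libraries had 2090 and 2919 barcodes in replicates 1 (wild type and Gulo-/-) against 11829 and 16822 in replicates 2. Whether same-numbered libraries were handled together was not tested. In proximal tubule (main 0) 4 were called with no filter and 0 to 5 when 1 library was left out. In macrophages (main 0) 9 were called with no filter, 3 with DESeq2, 4 with shared barcodes kept, 3 without the top 5% and 1 to 8 when 1 library was left out. Differences between gates numbered 0 to 7 against proximal tubule (main 4) and 0 to 2 against thick ascending limb (main 1) when 1 library was left out. Against thick ascending limb they numbered 2 with library totals or shared barcodes kept, and 0 with no filter, the stricter gate, shared barcodes removed from both or the top 5% left out. Against macrophages (main 1) they numbered 0 with no filter or 1 library left out. Signs turned in proximal tubule for Ifit3 (-0.20 without Gulo-/- replicate 2 and up to 0.60 when another library was left out, -0.04 without the top 5%) and Ddx58 (-0.07 without Gulo-/- replicate 2, -0.07 with shared barcodes removed from both), and in macrophages for Irf1 (0.30 without wild type replicate 1 and down to -1.51 when another was left out); the cause was not tested. Not run for too few cells were thick ascending limb at 25% mitochondrial UMIs (19 cells) and macrophages with shared barcodes removed from both (13 cells). The shares of all genes called under the alternatives are not given, so their member counts are not set against other genes.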
